A study of Mus musculus with 6 samples.

Results

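The Cyp4a genes of the mouse encode cytochrome P450 enzymes that hydroxylate fatty acids at the omega carbon, the methyl end of the chain. Followed here in liver were Cyp4a10, Cyp4a12a, Cyp4a12b, Cyp4a14 and Cyp4a31. Members were found by gene symbol in the annotation of the array, which gave 9 of the 55681 probes that are not controls and 5 of 24239 genes. Cyp4a10 and Cyp4a31 had 3 probes each, and Cyp4a12a, Cyp4a12b and Cyp4a14 had 1 probe each. The microarray experiment used livers of male B6C3F1 mice, a hybrid of C57BL/6 and C3H parents, labeled as 7 weeks old. The 3 mice of the control group received corn oil, and the 3 mice of the TCE group received trichloroethylene in corn oil at 1000 mg/kg b.w. by gavage daily for 5 days. The animals were killed shortly after the last dose. The labels name no transgene and no further treatment for either group, each mouse had its own array, and no RNA was pooled.

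Omega-hydroxylation is the first step of a side route of fatty acid oxidation. The hydroxyl group is oxidized to an aldehyde and then to an acid, and the resulting dicarboxylic acids are activated with coenzyme A and shortened in peroxisomes. In rodent liver Cyp4a10 and Cyp4a14 are classical target genes of PPARalpha, the nuclear receptor for fatty acids and peroxisome proliferators, and their induction is a common readout of that receptor. Cyp4a12a is the male-predominant member of the family in mouse liver and depends on androgen and on the male pattern of growth hormone. Trichloroethylene is a chlorinated solvent whose metabolite trichloroacetic acid is a known activator of PPARalpha.

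The members lie in a cluster on chromosome 4. In the RefSeq annotation of GRCm38.p6 the order was Cyp4a12a, Cyp4a30-ps, Cyp4a12b, Cyp4a30b, Cyp4a14, Cyp4a10, Cyp4b1-ps1, Cyp4a31, Cyp4b1-ps2 and Cyp4a32. The array annotation places probes on mm9, and all coordinates given here are on that build. Genes of such a cluster can be alike enough for a probe to take up RNA of a neighbour, so the probe sequences are shown before the values. A probe is named below by its gene and the base of the transcript at which the annotation says it starts. The clearest likeness was between Cyp4a10 1193 (chr4:115198463-115198522, plus strand) and Cyp4a31 1158 (chr4:115243923-115243982, plus strand), which aligned over all 60 bases with 6 mismatches, or 90.0% identity. They are shown in full, with the mismatched bases in capitals.
Cyp4a10 1193: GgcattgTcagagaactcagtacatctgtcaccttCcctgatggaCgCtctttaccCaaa
Cyp4a31 1158: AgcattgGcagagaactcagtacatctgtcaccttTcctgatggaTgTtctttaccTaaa

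The late probes Cyp4a10 2031 (chr4:115206200-115206259) and Cyp4a31 1982 (chr4:115251553-115251612) overlapped over 47 bases with 3 mismatches and shared a run of 34 identical bases. A stretch of 30 bases from that overlap, at chr4:115206217-115206246 for the first and chr4:115251583-115251612 for the second, is shown with its 2 mismatches in capitals.
Cyp4a10 2031, 30 bases: ccctcctttctgcaataaagTtccCagtgt
Cyp4a31 1982, 30 bases: ccctcctttctgcaataaagGtccAagtgt

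The hexamer AATAAA, the usual polyadenylation signal in DNA letters, was in the strand of 3 of the 9 probes, Cyp4a10 2031, Cyp4a31 1982 and Cyp4a12b 2335, and in that of 10.1% of all 55681 probes. On either strand it was in the same number of member probes and in 13.5% of all probes. Cyp4a10 1981 (chr4:115206150-115206209) overlapped Cyp4a31 1982 over 23 bases with 2 mismatches and shared a run of 14 bases with it.

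The probes of the other members were less alike. No further pair of member probes shared a run longer than 11 bases. Such runs compare probes at different sites, so a short one does not show that a probe is specific to its gene. The probe of Cyp4a12a, annotated to Cyp4a12b as well, shared a run of only 6 bases with that of Cyp4a12b. The first 30 bases of the probes of Cyp4a12a (chr4:115005258-115005287, plus strand), Cyp4a12b (chr4:115111580-115111609, plus strand) and Cyp4a14 (chr4:115158944-115158973, minus strand) are given.
Cyp4a12a 2259, first 30 bases: atgcatatctgaaagagccaattttcaacc
Cyp4a12b 2335, first 30 bases: cctttcagcttacatttaagagtcttgcca
Cyp4a14 2326, first 30 bases: aggttgttctctgcttttgactcctgagct

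Some probes were annotated to transcripts of more than 1 gene. Cyp4a31 713 (chr4:115242872-115242931, plus strand) was also annotated to Cyp4a10, Cyp4a10 1193 also to Cyp4a32, and the probe of Cyp4a12a also to Cyp4a12b. The signal of these probes cannot be assigned to 1 gene, and Cyp4a31 713 is shown because its change was the largest among the probes of that symbol.
Cyp4a31 713: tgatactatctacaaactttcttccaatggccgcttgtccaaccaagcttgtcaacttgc

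**Figure D1:**
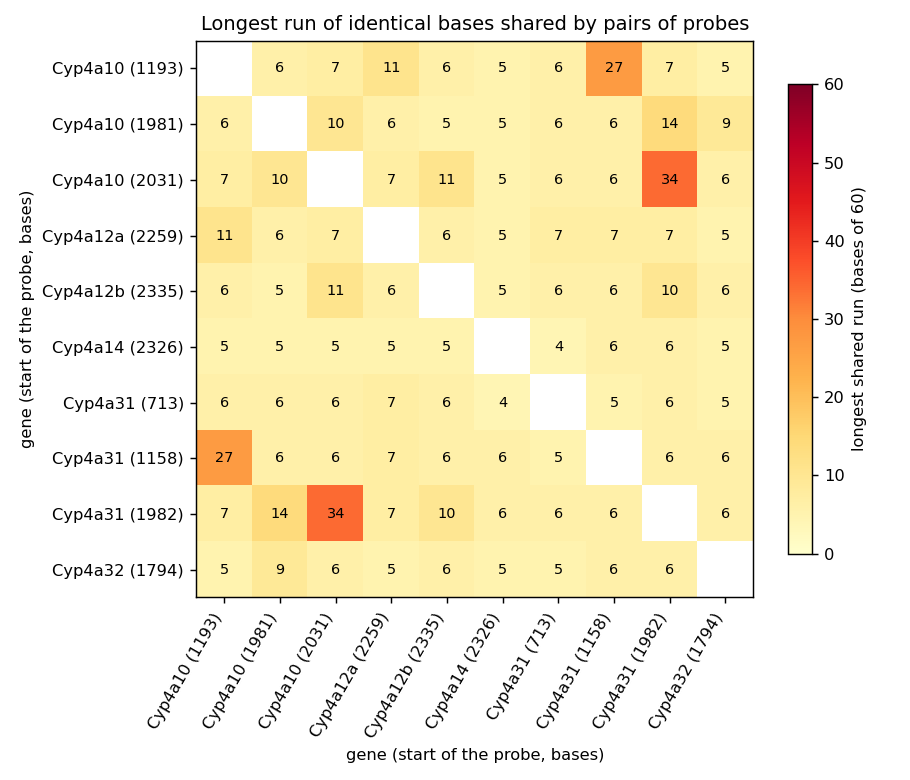
Longest run of identical bases (color and number, of 60) shared by each pair of probes for the 5 Cyp4a genes and for Cyp4a32, with the start of each probe in its transcript in brackets on both axes. The pairs with runs of 34 and 27 bases are 1 late and 1 interior pair of Cyp4a10 and Cyp4a31, and the third highest value is 14.

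All 9 probes were well above background on all 6 arrays, and 0 were saturated or carried an outlier flag. Values are log2 of the background-corrected signal after quantile normalization, and a level of one probe is not compared with that of another, since probes differ in brightness. Groups were compared by limma, a linear model in which probes lend each other information on the spread (two-sided test, Benjamini-Hochberg adjustment over 22731 detected probes). The threshold used here asks for at least a 2-fold difference and an adjusted p no higher than 0.05. With 3 mice per group the number of arrays limits the precision, and for any single probe the exact permutation test (two-sided) has a smallest p of 0.1. In liver tissue, fewer cells of a type and less RNA per cell cannot be told apart.

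The 7 probes of Cyp4a10, Cyp4a14 and Cyp4a31 were past the threshold, each higher in the TCE mice, and the 2 probes of Cyp4a12a and Cyp4a12b were not. Among all detected probes 1.41% were past it, 1.03% as higher and 0.383% as lower in the TCE group. In all 9 probes every TCE mouse was above every control mouse, where 25.7% of detected probes had groups that did not overlap, 15.5% with the TCE mice higher and 10.2% with them lower. Ordered by fold change among the 22731 probes, that of Cyp4a14 ranked 4, those of Cyp4a31 ranked 8, 16 and 40, and those of Cyp4a10 ranked 11, 13 and 18. The probe of Cyp4a12a ranked 3017 and that of Cyp4a12b ranked 3710.

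Cyp4a14, a lauric acid hydroxylase and one of the most sensitive PPARalpha targets of mouse liver, had the largest change among the members. Its log2 signal was 13.20, 12.45 and 12.25 in control mice 1, 2 and 3, and 17.93, 18.35 and 17.90 in TCE mice 1, 2 and 3. On the linear scale before normalization the intensity was 10382.5, 4874.7 and 3891 in the control mice and 274350, 281620 and 289857 in the TCE mice. The groups were far apart, with 4.70 on the log2 scale between the highest control and the lowest TCE mouse, while the 3 control mice spanned 0.95. The fold change was 42.9, with a 95% interval from 27.2 to 67.8.

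Cyp4a10 encodes the main lauric acid omega-hydroxylase that peroxisome proliferators induce in mouse liver. The probe at 1981 gave 13.40, 12.96 and 12.55 in the control mice and 17.38, 17.45 and 17.43 in the TCE mice. The TCE mice were almost level, with an SD of 0.04 against 0.42 in the control mice (n = 3 each). The log2 fold change was 4.45 with an SE of 0.22 (limma adjusted p = 0.00108), or 21.9-fold with a 95% interval from 15.2 to 31.4.

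At 2031, a little further downstream, Cyp4a10 gave 13.85, 13.45 and 12.95 in the control mice and 16.94, 17.68 and 17.70 in the TCE mice. Here TCE mouse 1 lay below the other TCE mice, which it did not to that extent at 1981. The log2 fold change was 4.02 with an SE of 0.30 (limma adjusted p = 0.00348), or 16.2-fold with a 95% interval from 9.81 to 26.8. The interior probe of Cyp4a10 at 1193 gave 11.45, 11.09 and 10.57 in the control mice and 15.22, 15.31 and 15.23 in the TCE mice. Its pattern over the mice was that of 1981, and the log2 fold change was 4.22 with an SE of 0.23 (limma adjusted p = 0.00109), or 18.6-fold.

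Cyp4a31 is a closely related member next to Cyp4a10 in the cluster. Its probe at 1982, which overlaps the late Cyp4a10 probes in sequence, gave 13.66, 13.16 and 12.83 in the control mice and 17.41, 17.33 and 17.45 in the TCE mice. The groups were 3.67 apart on the log2 scale, and the rise was 18.1-fold with a 95% interval from 12.6 to 26.0 (limma adjusted p = 0.00109). The probe at 1158 gave 11.47, 11.40 and 10.96 in the control mice and 14.30, 14.59 and 14.46 in the TCE mice. This was the smallest rise of the 7 probes, 9.03-fold with a 95% interval from 6.77 to 12.0 (limma adjusted p = 0.00109). The probe at 713, shared with Cyp4a10, gave 8.49, 8.22 and 7.79 in the control mice and 12.84, 12.76 and 12.62 in the TCE mice. It rose 23.8-fold, with a 95% interval from 17.2 to 33.0 (limma adjusted p = 0.000766).

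Cyp4a12a encodes the main omega-hydroxylase of arachidonic acid in male mice. Its probe, which is annotated to Cyp4a12b as well, gave 14.62, 14.78 and 14.74 in the control mice and 15.00, 15.12 and 15.15 in the TCE mice. The groups did not overlap, but the fold change was 1.30 with a 95% interval from 1.08 to 1.57, below the fold of 2 (limma adjusted p = 0.162). Cyp4a12b, its near copy, gave 15.47, 15.44 and 15.17 in the control mice and 15.68, 15.57 and 15.81 in the TCE mice. The gap between the groups was 0.11 on the log2 scale, smaller than the span of the control mice, and the fold change was 1.25 with a 95% interval from 1.00 to 1.57 (limma adjusted p = 0.277). Both intervals lie below a fold of 2.

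**Figure D2:**
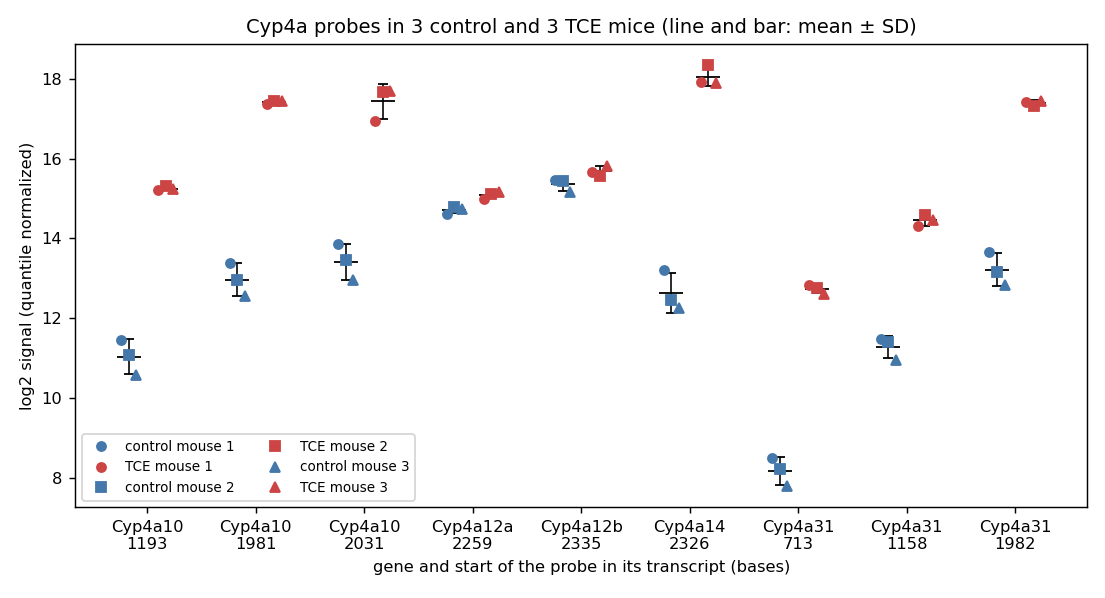
Quantile-normalized log2 signal (vertical axis) of the 9 Cyp4a probes (horizontal axis, gene and start of the probe in its transcript) in 3 control mice (blue) and 3 TCE mice (red), with 1 symbol per mouse number and lines and bars for mean ± SD. The TCE mice sit 2.83 to 4.70 above the highest control mouse in the 7 probes of Cyp4a10, Cyp4a14 and Cyp4a31, and 0.11 to 0.22 above it in those of Cyp4a12a and Cyp4a12b.

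The control mice were ordered alike in the induced genes. In each of the 7 probes of Cyp4a10, Cyp4a14 and Cyp4a31 control mouse 1 was the highest and control mouse 3 the lowest. The order was not particular to them, since the Cyp4a12b probe had it too (15.47, 15.44 and 15.17). The Cyp4a12a probe did not (14.62, 14.78 and 14.74). Relative to the mean of the control group, in the 7 probes control mouse 1 was 0.20 to 0.57 higher and control mouse 3 was between -0.47 and -0.31 on the log2 scale. Control mouse 1 was also alone on its slide and in its scan, while the other 5 arrays shared a slide, so that animal and slide cannot be told apart. Among the mice that shared a slide, the log2 fold changes fitted with slide as a block were 3.27 to 4.74 for the 6 probes of Cyp4a10 and Cyp4a31 and 5.71 for Cyp4a14, and all 7 remained past the threshold.

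The spread between TCE mice was smaller than that between control mice in all 7 of these probes. The SD was 0.04 to 0.43 in the TCE group and 0.27 to 0.50 in the control group, while the median SD of a detected probe was 0.21 in the TCE group and 0.17 in the control group. The induced probes thus varied more than the typical probe among control mice, on the log2 scale. The difference in spread was not tested.

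**Figure D3:**
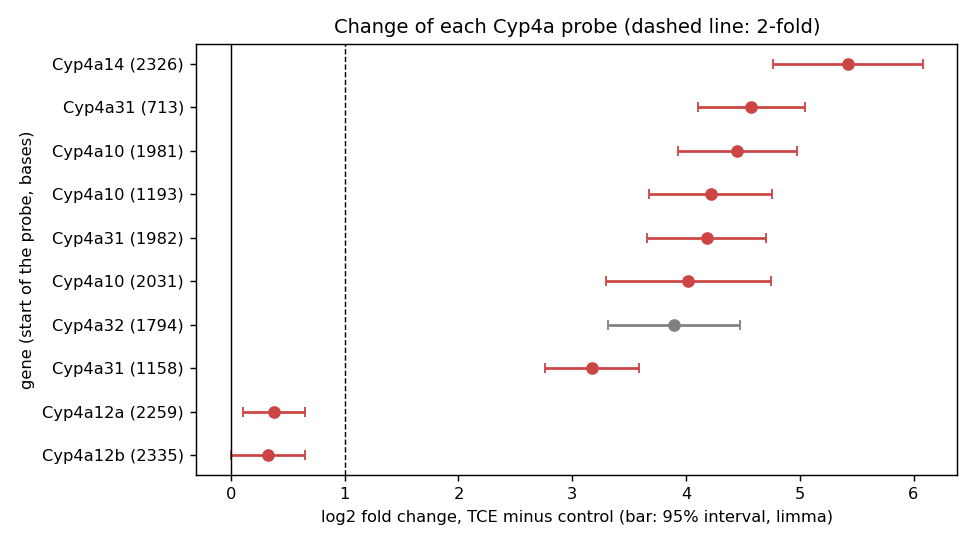
Log2 fold change (horizontal axis, TCE minus control) of each Cyp4a probe and of Cyp4a32 (grey), with the 95% interval from limma, for genes and probe starts on the vertical axis. The 7 probes of Cyp4a10, Cyp4a14 and Cyp4a31 lie from 3.17 to 5.42, to the right of the dashed line at 2-fold, and Cyp4a12a and Cyp4a12b lie at 0.38 and 0.33.

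Whether the members differed from each other in their response was tested within mice, with 1 probe per gene, the one with the highest mean signal. In each mouse the log2 signal of one gene was subtracted from that of another, and TCE and control mice were compared by an exact permutation test (two-sided), with the 95% interval on 4 degrees of freedom. Among the 10 pairs of genes, 8 had mice that did not overlap and an interval that left out 0. The smallest exact p was 0.1 and the smallest adjusted over the 10 pairs was 0.125, so none could pass a threshold of 0.05 in this design.

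The Cyp4a14 probe rose more than the brightest probes of Cyp4a10 and Cyp4a31 by these intervals. The log2 fold change of Cyp4a14 exceeded that of Cyp4a10 by 1.40 (95% interval 0.70 to 2.11) and that of Cyp4a31 by 1.24 (95% interval 0.71 to 1.77). As ratios of the folds these were 2.65 and 2.37. The first value used Cyp4a10 2031, whose log2 fold change of 4.02 was below those at 1981 (4.45) and 1193 (4.22). Over the alternative runs Cyp4a14 minus Cyp4a10 was 1.19 to 1.62, and Cyp4a14 minus Cyp4a31 was 1.07 to 1.45. Whether these are differences between genes or between probes was not tested. Cyp4a10 and Cyp4a31 were not told apart: the change of Cyp4a31 minus that of Cyp4a10 was 0.16, with an interval from -0.56 to 0.89 (exact permutation p = 0.9). Its sign turned to -0.08 without TCE mouse 1 and to -0.25 when all probes of each gene were averaged. Against the Cyp4a12 genes, the 3 induced members had log2 fold changes larger by 3.64 to 5.10, with a lowest interval bound of 2.65. The probes of Cyp4a12a and Cyp4a12b differed by 0.05, with an interval from -0.34 to 0.44 (exact permutation p = 0.9), but the first is annotated to both genes, so this value does not compare their responses.

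**Figure D4:**
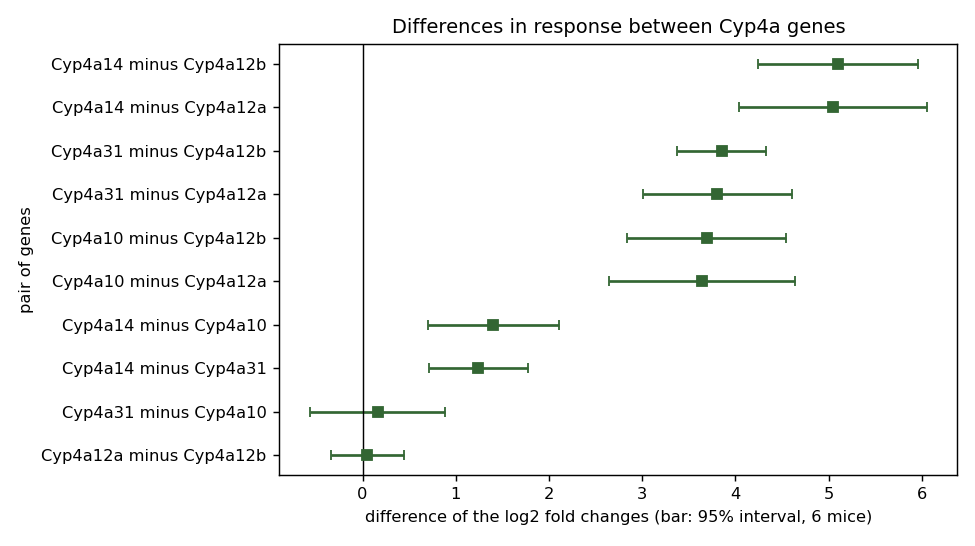
Difference between the log2 fold changes of 2 Cyp4a genes (horizontal axis) for the 10 pairs on the vertical axis, with 95% intervals over 6 mice. The 6 pairs of an induced member with a Cyp4a12 gene lie from 3.64 to 5.10, the 2 pairs of Cyp4a14 with Cyp4a10 and Cyp4a31 at 1.40 and 1.24, and 2 intervals include 0.

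Probes listed under the same symbol also differed. Cyp4a31 713 is shared with Cyp4a10 and Cyp4a10 1193 with Cyp4a32, so pairs that hold one of them do not compare sites within 1 gene. Under Cyp4a31 the log2 fold change at 713 exceeded that at 1158 by 1.40 (95% interval 1.01 to 1.79), and that at 1982 exceeded it by 1.01 (95% interval 0.55 to 1.47). These differences were of similar size to those between Cyp4a14 and the other induced genes. Under Cyp4a10 the largest difference was 0.43, between 1981 and 2031, with an interval from -0.21 to 1.07, and 1981 exceeded 1193 by 0.23 (95% interval 0.13 to 0.34). Of the 6 pairs of probes under the same symbol, 4 had an interval that left out 0, and the lowest adjusted p was 0.12 by the exact permutation test (two-sided).

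How the symbols Cyp4a10 and Cyp4a31 compared differed with the probes used. The late probes printed above gave log2 fold changes that differed by 0.16. The interior probes Cyp4a10 1193 and Cyp4a31 1158, also printed above, gave 4.22 and 3.17, a difference of 1.04 with a 95% interval from 0.69 to 1.39 (exact permutation p = 0.1, the smallest possible). Since Cyp4a10 1193 is also annotated to Cyp4a32, this difference is one between probes and not between Cyp4a10 and Cyp4a31 alone. How far each of these probes takes up RNA of another Cyp4a gene was not tested.

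The other genes of the Cyp4 family stood apart from the induced members, with 1 exception. Of 16 genes listed, 9 were tested, 1 was past the threshold as higher and 1 as lower, with the list median at a log2 fold change of -0.12. Over the 13284 genes tested by 1 probe each, 1.73% were past the threshold, 1.3% as higher and 0.429% as lower, and the median was 0.02. Of these 13284 genes, 53.1% had a higher mean in the TCE mice (7058) and 6226 a lower one. The gene that rose was Cyp4a32, at the end of the Cyp4a cluster, with 11.72, 11.20 and 10.77 in the control mice and 15.03, 15.21 and 15.14 in the TCE mice. Its control mice had the same order as in the induced members, and the fold change was 14.9 with a 95% interval from 9.95 to 22.3 (limma adjusted p = 0.00171). The probe of Cyp4a32 at 1794 shared no run over 9 bases with a probe of the members. That compares probes at different sites and not the probe with the transcripts of the members, so uptake of their RNA was not tested. Cyp4v3, an omega-hydroxylase of medium-chain fatty acids encoded elsewhere, fell from 15.28, 15.34 and 15.19 to 14.35, 14.05 and 14.13, a change of -1.10 on the log2 scale (limma adjusted p = 0.015). That call was lost without any 1 of the control mice or without TCE mouse 3 (limma adjusted p 0.0536 to 0.0893). Of the neighbours in the cluster, Cyp4a29 and Cyp4a30b were not detected, and Cyp4b1 had a change of -0.92 on the log2 scale (limma adjusted p = 0.253).

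P450 enzymes receive electrons from cytochrome P450 reductase and cytochrome b5. Of 6 such genes, 5 were tested, all 5 had a higher mean in the TCE mice (53.1% of all genes tested) and 0 were past the threshold, with a median log2 fold change of 0.29. Por, the reductase, gave 13.95, 13.70 and 13.79 in the control mice and 14.97, 14.58 and 14.26 in the TCE mice. Its groups did not overlap, and the log2 fold change was 0.79 (limma adjusted p = 0.115).

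The enzymes that oxidize omega-hydroxy fatty acids further were followed with 9 alcohol and aldehyde dehydrogenases. Of the 8 tested, 1 was past the threshold, as higher, with the list median at a log2 fold change of 0.33. This was Aldh3a2, the fatty aldehyde dehydrogenase, with 9.86, 9.84 and 10.01 in the control mice and 11.62, 12.22 and 11.47 in the TCE mice, a 3.65-fold rise (limma adjusted p = 0.0145). The call was lost without any 1 of the control mice or without TCE mouse 1 (limma adjusted p 0.0538 to 0.0788). Adh1 and Adh4, the main liver alcohol dehydrogenases of the list, had log2 fold changes of 0.44 and 0.31 (limma adjusted p = 0.171 and 0.239).

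A list of 20 genes, all tested, was drawn up around the activation, peroxisomal import and shortening of dicarboxylic acids. It also held genes that carry out none of these steps, such as Pex11a. Past the threshold were 3, all higher, 17 had a higher mean in the TCE mice (53.1% of all genes tested), with the list median at a log2 fold change of 0.59. Ehhadh, the bifunctional enzyme needed to shorten dicarboxylic acids, rose from 12.88, 12.58 and 12.70 to 16.11, 16.02 and 15.80, or 9.55-fold (limma adjusted p = 0.000766). Acaa1b, a peroxisomal thiolase, rose 4.01-fold (limma adjusted p = 0.00629). Pex11a, which promotes the division of peroxisomes, rose 2.37-fold (limma adjusted p = 0.0215), and its call was lost without any 1 control mouse and without TCE mouse 1 or 2 (limma adjusted p 0.0619 to 0.103).

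Ehhadh came nearest to the induced Cyp4a genes in that list. The smallest fold among the 7 induced Cyp4a probes, 9.03, was below that of Ehhadh and above those of the other 2 genes of the list that were past the threshold.

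The mRNA of the receptor itself was close to level. Ppara gave 14.46, 14.45 and 14.17 in the control mice and 14.71, 14.44 and 14.50 in the TCE mice, a change of 0.19 on the log2 scale (limma adjusted p = 0.535), and the groups overlapped. Of 15 genes for PPARs, their RXR partners and coregulators, all tested, 0 were past the threshold, with the list median at a log2 fold change of 0.12. Med1, a coactivator subunit, had a log2 fold change of -0.81 that passed the limma test (adjusted p = 0.0473) but not the fold of 2.

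Since Cyp4a12a is predominant in males, other genes of that kind were listed beside it. Of 18 genes, 13 were tested, 3 were past the threshold, all lower, 12 had a lower mean in the TCE mice (6226 of all 13284 genes tested), with the list median at a log2 fold change of -0.64. The Cyp4a12 probes, at 0.38 and 0.33, had the opposite sign. Hsd3b5, a steroid dehydrogenase of male liver, fell from 15.78, 15.63 and 15.62 to 13.15, 14.07 and 14.33, a change of -1.83 on the log2 scale (limma adjusted p = 0.0414). Cyp7b1, an oxysterol hydroxylase, had a change of -1.43 on the log2 scale (limma adjusted p = 0.044), and Ugt2b1, a glucuronosyltransferase, of -1.21 (limma adjusted p = 0.00965).

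With 1 mouse left out the 3 genes stayed lower, with log2 fold changes of -2.07 to -1.49 for Hsd3b5, -1.60 to -1.22 for Cyp7b1 and -1.26 to -1.13 for Ugt2b1, but calls were lost. That of Hsd3b5 was lost without any 1 control mouse and without TCE mouse 2 or 3 (limma adjusted p 0.0521 to 0.151), that of Cyp7b1 without any 1 of the 6 mice (0.0799 to 0.16), and that of Ugt2b1 without control mouse 2 (0.051). Of 10 genes of growth hormone and androgen input, 8 were tested and 0 were past the threshold, with a median of -0.47. A lower mean in the TCE mice was seen in 7 (6226 of all 13284 genes tested) and a higher one in 1. The log2 fold change of Cish was -2.11, with groups that did not overlap (limma adjusted p = 0.205). That of Socs2 was -1.57, with groups that overlapped (limma adjusted p = 0.48). Ghr, the growth hormone receptor, gave 14.72, 14.85 and 14.71 in the control mice and 14.41, 14.24 and 14.26 in the TCE mice (limma adjusted p = 0.113).

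**Figure D5:**
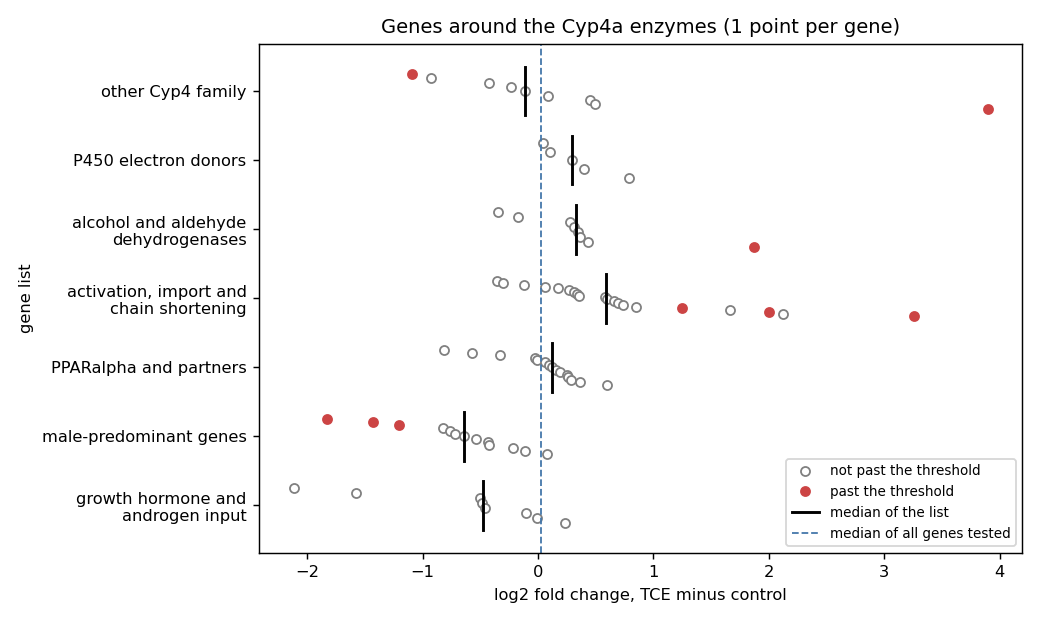
Log2 fold change (horizontal axis, TCE minus control) of each tested gene in the 7 lists on the vertical axis, filled where past the threshold, with the median of each list as a black bar and the median of all genes tested as a dashed line. Filled points to the right are Cyp4a32, Aldh3a2, Pex11a, Acaa1b and Ehhadh, and those to the left are Cyp4v3, Ugt2b1, Cyp7b1 and Hsd3b5.

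Markers of hepatocytes were all detected, in keeping with the tissue label of liver. Over the 10 hepatocyte markers 0 were past the threshold, the median log2 fold change was -0.03, and their summed linear signal was 1996600 to 2116930 in the control mice and 1808980 to 2125380 in the TCE mice. Of the markers of other liver cells, 3 of 6 for bile duct, 6 of 6 for endothelium, 6 of 6 for Kupffer cells, 5 of 6 for stellate cells and 4 of 6 for lymphocytes were detected, and 0 were past the threshold. Krt7, Epcam and Cftr were among those not detected. Summed levels overlapped between the groups except for lymphocyte markers. The lymphocyte sums were 1889 to 1971 in the control mice and 1365 to 1854 in the TCE mice. However, 2 lymphocyte markers had a higher and 2 a lower mean in the TCE mice, with a median log2 fold change of 0.11. The lower sums thus do not show a fall of these markers as a set. All 3 detected bile duct, 6 endothelial and 6 Kupffer cell markers had a lower mean in the TCE mice (6226 of all 13284 genes tested). The median log2 fold changes of these lists were -0.22, -0.15 and -0.14. Among the 5 stellate cell markers, 2 had a higher and 3 a lower mean. The part of these cell types in the results was not tested.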

How the data were processed

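Liver RNA of 3 control and 3 TCE mice was measured on 1-colour Agilent arrays, 1 per mouse. The authors extracted spots with Agilent Feature Extraction 10.7.1.1, and the deposited scanner output gives a background-subtracted intensity per spot with flags. The deposited table of the authors holds log2 group means after quantile normalization, and its gene symbols chose the members. Its 6 per-sample flag columns could not be matched to samples by name and were not used. Here 59305 spots that are not controls were put on the log2 scale, outlier-flagged spots were left out, spots of a probe were averaged and arrays were quantile normalized. The group means were within 0.01 of the authors' for 99.95% of 55681 probes. Between 23537 and 24965 probes per array were well above background.

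The test was limma 3.58.1 (R 4.3.3, statmod 1.5.0, data.table version 1.17.8) with group as its single factor, over probes that passed the background flag on the 3 arrays of either group, and figures were drawn in Python 3.11.15. For lists and pairs, each gene was read from its brightest detected probe on average. On simulated data for TCE against control (22724 probes, 200 changed by 2 on the log2 scale) 80.5% of changed probes were called, with 7 false calls and 0 in the wrong direction. The members and gene lists were chosen with earlier results of these data known. Every member probe is described. Other genes are named from the lists where past the threshold, with up to 3 more per list where their value is needed, or as the 3 genes most like a member. Alternatives were another normalization, background correction (normexp, offset 50) or filter, outlier spots kept, slide and replicate blocks, array weights, another variance model, the methods' t-test, each mouse left out, the authors' table and averaged probes. Other doses and the study's other assays were not analysed here. Some genes of the lists are counted but not reported here by name. Mice are numbered by the replicate in the source label of each sample, while titles and file names number them otherwise, so a mouse number names an array and carries no link to other records of the animal.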

Additional observations from a re-analysis of the deposited data

How the results depend on the processing

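The 9 Cyp4a probes kept their direction under every alternative run, and 6 or 7 of them were past the threshold. The 2 Cyp4a12 probes passed it under none. The probe that was lost was Cyp4a10 2031, under the replicate block (limma adjusted p = 0.066) and with the methods' t-test after adjustment (0.0605). Replicate numbers did not pair the mice: the correlation of deviations was 0.09, 0.01 and -0.09 for same-numbered mice. The replicate block gave 56 higher and 7 lower probes over the whole array, against 234 and 87, and 2 higher and 0 lower genes of the 7 lists, against 5 and 4. With slide as a block there were 147 higher and 30 lower probes and 1 lower list gene. With all probes tested there were 78 and 18 probes, and 3 and 1 list genes. Only probes well above background on all 6 arrays gave 149 higher probes. The methods' t-test gave 388 and 206 probes unadjusted, and 31 and 4 probes with 1 and 0 list genes adjusted. Leaving out 1 mouse gave 99 to 171 higher and 15 to 74 lower probes, and 3 to 5 higher and 0 to 3 lower list genes. Cyp4a12a minus Cyp4a12b turned to -0.011 with normexp and to -0.049 with slide as a block, and was -0.047 to 0.16 with 1 mouse left out. Cyp4a31 minus Cyp4a10 was -0.084 to 0.32 with 1 mouse left out and -0.25 with averaged probes. These runs differ in the number of mice, the probes tested or the model, and the cause of the lower counts was not tested.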

Other observations

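The genes whose log2 signal ran most like that of each member over the 6 arrays are given as a description. The arrays are shared and the difference between the groups sets most of such a correlation, so Pearson's r is near 1 for many genes. For Cyp4a14 they were Rad51b (r = 0.999), a gene of homologous recombination, Rufy4 (r = 0.999) and Cyp4a32 (r = 0.998). For Cyp4a31 they were Cyp4a32 (r = 0.999), Mdh2 (r = 0.998), the mitochondrial malate dehydrogenase, and Acot5 (r = 0.997), a peroxisomal acyl-CoA thioesterase. For Cyp4a10 they were Pde4d, a cyclic AMP phosphodiesterase, Acot6 and Ccnb2, the mitotic cyclin B2 (r = 0.998 each). Like Cyp4a10, Cyp4a14 and Cyp4a31, Rad51b rose steeply, with a log2 fold change of 5.56, while Mdh2 had one of 0.38 and was not past the threshold, so a like pattern over the mice did not mean a like size of change.

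The genes nearest to the Cyp4a12 probes were others. For Cyp4a12a they were Serinc2 (r = 0.995), Cmbl (r = 0.995) and Acot9 (r = 0.994), with log2 fold changes of 1.44, 0.37 and 0.74, of which that of Serinc2 was past the threshold. For Cyp4a12b they were Zfp867 (r = 0.991), Nfu1 (r = 0.991) and Cdk7 (r = 0.988), with log2 fold changes of 0.26, 0.21 and 0.68, and 0 of the 3 were past the threshold.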
